A study of Mus musculus with 8 samples.

Results

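The genes described here are 30 genes that B lymphocytes and their precursors are known to express, read in cells selected for CD11b. They were taken from a list of B-lineage genes that was chosen with earlier results of these data known. Each was represented by the probe set with a single gene symbol and the highest mean over all arrays. All 30 listed genes were measured, among 18193 genes in all. The cells came from NOD mice, a strain that becomes diabetic through autoimmunity, and from NOD.Idd3 mice, which are NOD mice that differ at Idd3, the chromosome 3 diabetes locus that holds Il2. The 4 groups were NOD unstimulated, NOD with peptidoglycan (PGN, a polymer of bacterial cell walls), NOD.Idd3 unstimulated and NOD.Idd3 with PGN, with 2 arrays in each. PGN was given at 5 µg/ml, the unstimulated cells had medium alone, and all cells were kept for 4 h at 37 °C. The labels call the 2 arrays of each group biological replicates. The sources used here give no age, sex, tissue of origin or pooling of animals, and the p-values therefore reflect the spread among these arrays alone.

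B cells are lymphocytes that recognise antigen through a surface immunoglobulin, and CD79A and CD79B are the chains that pass its signal into the cell. CD22 and CD72 dampen that signal, the kinase BLK and the adaptors BLNK and BANK1 act just inside the membrane, and CD20 (the product of Ms4a1), the BAFF receptor (Tnfrsf13c) and the chemokine receptor CXCR5 are further proteins of the B cell surface. The identity of the lineage is set by the transcription factors PAX5 and EBF1, with SPIB, OCT2 (Pou2f2) and its partner OBF-1 (Pou2af1) among the factors that serve mature B cells. CD11b is mainly a marker of myeloid cells, although some B cells, such as B-1 cells of the body cavities, carry it. Some of the 30 genes are also known in myeloid cells, among them Cd37, Cd72, Cd180, Cd55 and Pou2f2.

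Values are log2 of the deposited intensities. A strain difference is NOD.Idd3 minus NOD, a PGN effect is PGN minus unstimulated, and a gene passed where its limma p-value, adjusted over all 18193 genes by the Benjamini-Hochberg method, was under 0.05. The defining B cell genes were read on every array, with Cd79a between 7.74 and 10.35, Cd79b between 7.41 and 10.73 and Ms4a1 between 6.36 and 9.28. Pax5 lay between 4.30 and 4.99, close to the 25th percentile of the arrays (4.28 to 4.57), so its reading carries little signal. The labelled CD11b identity was also read on every array, with Itgam, the CD11b gene itself, between 7.87 and 9.02, Cd14 between 14.17 and 14.65 and S100a9 between 14.42 and 15.17.

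Promoters were searched for a pair of sequence words that B-lineage factors are known to bind, the octamer ATTTGCAT of OCT2 and its partner and the EBF1 word, TCCC and GGGA with any 2 bases between them. RefSeq promoter windows (250 bases before to 50 after a transcript start, build GRCm38.p6) were found for 25 of the 30 genes, 31 windows in all. The octamer was in 3 of them (9.68%) on either strand, against 1.74% of all 32851 windows, and the EBF1 word was in 1 (3.23%), against 0.904%. The words do not overlap each other in these windows. The 4 windows that hold a match are printed because they are the only members' windows with these words, and Cnr2 among them had the smallest p of the 30 genes for the PGN effect. They are Cnr2 (chr4:135894939-135895238, plus strand, octamer from position -48), Blnk (chr19:40994172-40994471, minus strand, octamer from -130), Vpreb3 (chr10:75948050-75948349, plus strand, octamer from -45) and Cd22 (chr7:30878979-30879278, minus strand, EBF1 word from -49), with positions counted back from the start. The match is in capitals, each sequence is written 5′ to 3′ along the gene, and a match is a description of the letters only.
Cnr2: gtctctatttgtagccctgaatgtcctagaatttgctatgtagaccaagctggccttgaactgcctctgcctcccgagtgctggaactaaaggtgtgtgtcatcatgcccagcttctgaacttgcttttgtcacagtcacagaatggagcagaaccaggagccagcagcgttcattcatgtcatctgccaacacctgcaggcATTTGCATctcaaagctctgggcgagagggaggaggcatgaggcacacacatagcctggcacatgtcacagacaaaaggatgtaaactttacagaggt
Blnk: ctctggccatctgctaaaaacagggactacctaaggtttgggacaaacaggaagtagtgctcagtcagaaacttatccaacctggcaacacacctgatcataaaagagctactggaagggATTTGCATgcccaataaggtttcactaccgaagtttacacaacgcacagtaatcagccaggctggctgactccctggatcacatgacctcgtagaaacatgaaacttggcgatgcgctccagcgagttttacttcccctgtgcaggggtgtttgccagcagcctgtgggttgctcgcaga
Vpreb3: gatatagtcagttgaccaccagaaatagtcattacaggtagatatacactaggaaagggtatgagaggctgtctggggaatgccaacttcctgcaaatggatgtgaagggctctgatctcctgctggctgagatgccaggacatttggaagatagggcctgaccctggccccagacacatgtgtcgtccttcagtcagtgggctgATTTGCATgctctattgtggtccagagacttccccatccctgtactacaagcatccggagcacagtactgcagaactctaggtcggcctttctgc
Cd22: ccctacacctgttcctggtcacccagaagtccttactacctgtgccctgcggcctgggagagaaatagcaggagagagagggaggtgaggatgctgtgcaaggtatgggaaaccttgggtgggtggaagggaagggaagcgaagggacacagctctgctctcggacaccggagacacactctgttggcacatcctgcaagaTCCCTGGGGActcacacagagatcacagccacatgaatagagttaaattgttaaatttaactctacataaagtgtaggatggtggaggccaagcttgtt
Of the genes with a window, Fcrl1 and Bank1 lie on chromosome 3, and their starts are 50.25 and 99.2 Mb from that of Il2.

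The first comparison asked whether the B-lineage genes differed between the strains. Most were lower in NOD.Idd3 than in NOD cells: 24 of 30 had a negative difference averaged over both conditions, against 55.4% of all genes. The median was -0.75 on the log2 scale against -0.03 over all genes. Differences of at least 2-fold downward were found in 13 of 30, against 0.385% of all genes, and none was 2-fold higher. Because the list was chosen with earlier results of these data known, such counts against all genes describe it and are no independent test. Ms4a1 was the lowest at 3.28-fold, followed by Blk (2.79-fold) and Tnfrsf13c (2.75-fold). No member passed in limma (0 of 30, with 0% of all genes called), and Blnk had the smallest adjusted p at 0.156. At an unadjusted p under 0.05 there were 17 lower members, against 3.43% of all genes, and 1 higher member, Cd55, against 3.03%.

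The arrays also differed by replicate number, and this spread is large for B-lineage genes. In 16 of 30 members the replicate 2 array was above the replicate 1 array in all 4 groups, against 16.1% of all genes. The median replicate 2 minus replicate 1 difference of the members was 1.04 in unstimulated NOD, 0.52 in NOD with PGN, 0.30 in unstimulated NOD.Idd3 and 0.31 in NOD.Idd3 with PGN. The highest array for most members was therefore replicate 2 of unstimulated NOD, where the members lay 0.92 above their own means on average. With the replicate number as a term in the fit (the replicate block), 6 members passed for the averaged strain difference, all lower in NOD.Idd3, where 0.137% of all genes were called lower and 0.011% higher. These were Ms4a1, Blk, Cxcr5 (adjusted p = 0.0226 each), Spib (0.0269), Cd79b (0.0280) and Tnfrsf13c (0.0434), and they made up 6 of the 25 genes called lower. With single arrays left out of the fit with the block, the median of the members stayed negative. It ran from -0.86 without replicate 1 of unstimulated NOD to -0.66 without its replicate 2. In most of these fits, each with 1 array left in a group, the calls were lost among the members and all genes alike.

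**Figure D1:**
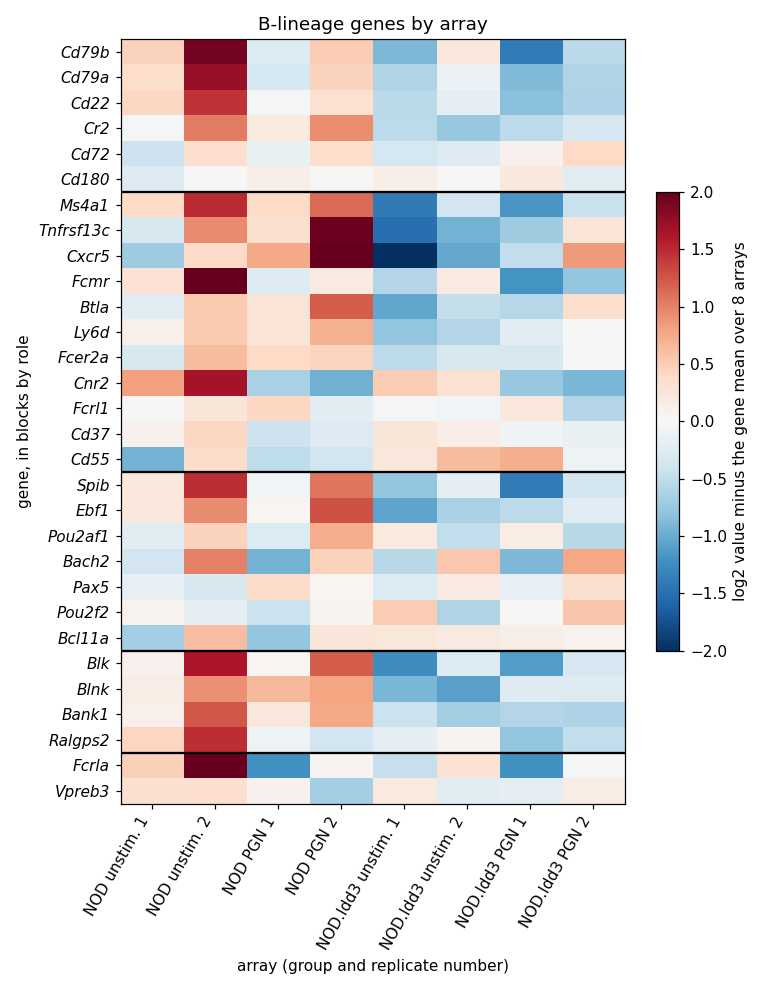
Heat map of the log2 value of each of the 30 B-lineage genes on each of the 8 arrays, minus the gene's mean over the arrays, with genes in blocks by role. Replicate 2 of unstimulated NOD is the highest array for most genes, and the 4 NOD.Idd3 arrays lie below the mean on average (-0.49 to -0.15). The replicate 2 arrays of NOD lie above it (0.92 unstimulated, 0.48 with PGN), and the replicate 1 arrays of NOD lie near it (0.01 and -0.06).

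Among the receptor chains and the proteins that tune their signal, the differences ran from -1.31 (Cd79b) to 0.06 (Cd180), with a median of -1.07 over 6 genes. Cd79a stood at 8.97 and 10.35 in unstimulated NOD (replicates 1 and 2), 8.27 and 9.08 in NOD with PGN, 8.02 and 8.50 in unstimulated NOD.Idd3 and 7.74 and 8.01 in NOD.Idd3 with PGN. Cd79b stood at 9.27 and 10.73, 8.53 and 9.31, 7.90 and 9.02, and 7.41 and 8.26 in the same order. For both chains the ranges of the strains overlapped, with replicate 2 of unstimulated NOD.Idd3 above replicate 1 of NOD with PGN, but at equal replicate number and condition NOD.Idd3 was lower in all 4 pairs, by a difference of -1.37, -1.70, -1.12 and -1.05 for Cd79b. The averaged difference was -1.10 ± 0.32 (SE, 4 arrays per strain) for Cd79a and -1.31 ± 0.39 for Cd79b, and the SE of Cd79b was 0.16 with the replicate block. These SEs count the 4 arrays of a strain as separate. The labels do not say whether unstimulated and PGN arrays of the same strain and replicate number shared a cell preparation. If they did, the 4 pairs are not independent, and neither fit has a term for preparation within strain.

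Cd22, an inhibitory receptor that binds sialic acid, stood at 6.41 and 7.44, 5.97 and 6.30, 5.46 and 5.82, and 5.16 and 5.38. Each of its NOD.Idd3 values was below each of its NOD values (-1.08 ± 0.24, adjusted p = 0.432 in limma). Cr2, which encodes complement receptor CD21, stood at 5.13 and 6.18, 5.35 and 6.08, 4.64 and 4.39, and 4.63 and 4.82. Its strains did not overlap either (-1.07 ± 0.26), and its NOD.Idd3 values reached down to the 25th percentile of the arrays. Cd72 and Cd180, which encodes a relative of the Toll-like receptors, did not follow them, at -0.06 ± 0.21 and 0.06 ± 0.16. Cd72 ranged from 9.95 to 10.71 in NOD and from 10.01 to 10.76 in NOD.Idd3, and Cd180 from 6.88 to 7.26 and from 6.93 to 7.34.

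Among the 11 other surface proteins 8 were lower in NOD.Idd3 in all 4 pairs, a pattern shown by 9.89% of all genes. Ms4a1 stood at 8.18 and 9.28 in unstimulated NOD, 8.18 and 8.92 in NOD with PGN, 6.36 and 7.40 in unstimulated NOD.Idd3 and 6.61 and 7.33 in NOD.Idd3 with PGN. The strains did not overlap, and the paired differences were close to each other at -1.82, -1.89, -1.57 and -1.58. The average was -1.71 ± 0.34 (adjusted p = 0.345), with an SE of 0.14 with the replicate block, and the other Ms4a1 probe set gave -1.89. Cxcr5, the receptor that guides B cells into follicles, showed still closer pairs at -1.31, -1.40, -1.25 and -1.40. Its values were 6.54 and 7.63, 8.0 and 9.49, 5.23 and 6.23, and 6.75 and 8.10, so the strains were apart in unstimulated cells, while with PGN replicate 2 of NOD.Idd3 lay above replicate 1 of NOD. Tnfrsf13c, whose product takes up the survival factor BAFF, stood at 8.47 and 9.74, 9.12 and 10.76, 7.29 and 7.84, and 8.08 and 9.05, with paired differences of -1.18, -1.90, -1.04 and -1.71.

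Ly6d, a small membrane-anchored protein found on early and mature B-lineage cells, stood at 6.99 and 7.42, 7.15 and 7.60, 6.10 and 6.31, and 6.69 and 6.89 (-0.79 ± 0.18). Its strains did not overlap. Fcmr, the receptor for IgM, stood at 6.76 and 8.63, 6.23 and 6.66, 5.89 and 6.65, and 5.29 and 5.71 (-1.19 ± 0.38). Btla, an inhibitory receptor shared by B and T cells, stood at 6.35 and 7.11, 6.83 and 7.79, 5.54 and 6.10, and 6.01 and 6.93 (-0.88 ± 0.31). Both overlapped between strains but were lower in NOD.Idd3 in all 4 pairs. Fcer2a, the low-affinity IgE receptor CD23, was at -0.58 ± 0.22, and Fcrl1, an Fc receptor-like protein, at -0.23 ± 0.22.

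Among these other surface proteins, Cd37 and Cd55 were the genes with positive differences. Cd37, a tetraspanin, ranged from 10.96 to 11.79 in NOD and from 11.23 to 11.61 in NOD.Idd3 (0.08 ± 0.15). Cd55, which protects cells from complement, stood at 7.18 and 8.49, 7.62 and 7.76, 8.35 and 8.76, and 8.85 and 8.04. It was the only member higher in NOD.Idd3 in all 4 pairs (1.17, 0.27, 1.23 and 0.28), a pattern shown by 8.33% of all genes. Its average of 0.74 ± 0.30 did not pass (adjusted p = 0.757), and its other probe sets gave 0.68 and 0.70. Cnr2, the cannabinoid receptor CB2, was at -0.43 ± 0.21, and its pairs ran from -1.35 to 0.03.

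All 4 genes of the kinase and adaptor group were lower in NOD.Idd3 in every pair (9.89% of all genes). Blk stood at 7.58 and 9.12, 7.55 and 8.72, 6.26 and 7.23, and 6.39 and 7.16 (-1.48 ± 0.41, or ± 0.16 with the replicate block), and its strains did not overlap. Blnk, which links the receptor to phospholipase activation, stood at 6.96 and 7.73, 7.47 and 7.60, 5.90 and 5.73, and 6.56 and 6.56 (-1.25 ± 0.19). Its strains were also apart, and its SE was the smallest of the group. Bank1, an adaptor with ankyrin repeats, stood at 6.30 and 7.44, 6.43 and 6.97, 5.78 and 5.50, and 5.61 and 5.58 (-1.17 ± 0.26) without overlap. Ralgps2, an exchange factor for the small GTPase Ral, was at -0.71 ± 0.24 with overlap.

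The transcription factors were divided, with a median of -0.07 over 7 genes and 2 of 7 lower in all pairs (9.89% of all genes). Spib stood at 7.98 and 9.24, 7.71 and 8.82, 6.99 and 7.58, and 6.35 and 7.39 (-1.36 ± 0.37). Ebf1 stood at 7.76 and 8.49, 7.58 and 8.83, 6.49 and 6.89, and 7.02 and 7.30 (-1.24 ± 0.29). Neither overlapped between strains, and the other Ebf1 probe sets gave -0.80, -0.93, -0.16 and 0.28. Bach2, a repressor that holds back plasma cell differentiation, stood at -0.07 ± 0.50, and its replicate 2 arrays were above replicate 1 by 1.40, 1.41, 1.09 and 1.67 in the 4 groups. Its strain difference at equal replicate number ran only from -0.47 to 0.31.

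Pou2af1 went both ways by replicate number, at 0.40 and 0.42 in the replicate 1 pairs and -0.95 and -1.28 in the replicate 2 pairs. Bcl11a, a zinc finger factor needed early in the lineage, was likewise at 0.90 and 0.89 in replicate 1 and -0.44 and -0.17 in replicate 2. Pou2f2 averaged 0.24 ± 0.26 and Pax5 0.03 ± 0.18. Of the remaining members, Fcrla, an Fc receptor-like protein kept inside B cells, was at -0.71 ± 0.44, and Vpreb3, a protein related to the surrogate light chain, at -0.03 ± 0.21. Fcrla was lower in the unstimulated pairs (-0.94 and -1.81), while the PGN pairs were at -0.0029 and -0.078.

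**Figure D2:**
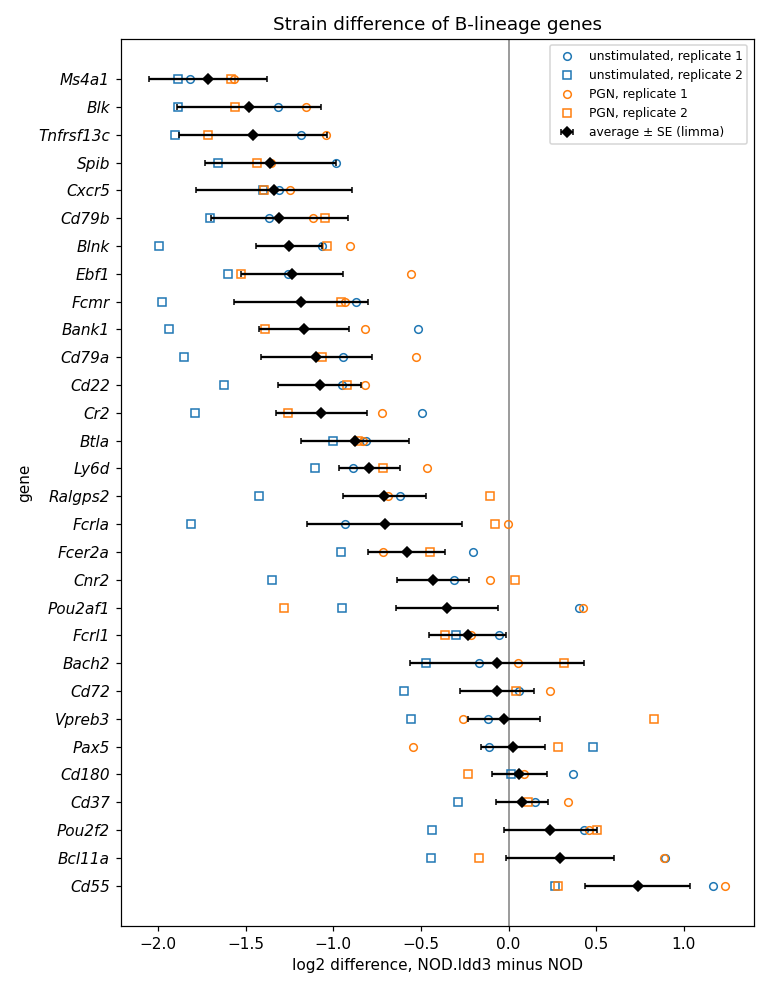
Log2 difference (NOD.Idd3 minus NOD) of each of the 30 genes: diamonds with bars give the limma average over conditions with its SE, and open symbols give the 4 differences at equal condition and replicate number. Ms4a1, at -1.71, has the lowest average and Cd55, at 0.74, the highest, and 19 genes have all 4 open symbols below 0.

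Counted over the whole list, 19 of 30 members were lower in NOD.Idd3 in all 4 pairs, against 9.89% of all genes, and 9 of 30 had no overlap between the 4 NOD and the 4 NOD.Idd3 arrays, against 1.77%. The 9 were Bank1, Blk, Blnk, Cd22, Cr2, Ebf1, Ly6d, Ms4a1 and Spib. The summed intensity of the 30 members did overlap, at 9414 to 18164 on the NOD arrays and 9010 to 10395 on the NOD.Idd3 arrays. This sum of linear values is weighted to the brightest members, such as Cd37 and Cd72, which are also known in myeloid cells. In bulk RNA a smaller number of B-lineage cells and less of the members' transcripts per cell cannot be told apart. In unstimulated cells alone the median of the members was -1.01 (26 of 30 negative), and with PGN it was -0.59 (23 of 30). Over all 18193 genes, 10279 and 9264 were negative in these conditions. No member passed in either condition in limma, with or without the replicate block (0% of all genes in each), while 15 and 10 members were lower at an unadjusted p under 0.05, against 2.14% and 3.09% of all genes, and 0 were higher in either (1.21% and 2.31%). Without replicate 2 of unstimulated NOD the unstimulated median was -0.51, and without replicate 1 of unstimulated NOD.Idd3 it was -0.90. With PGN the median was -0.40 without replicate 2 of NOD and -0.57 without replicate 1 of NOD.Idd3. Each of these fits leaves 1 array in a group, and fewer members reached that p in them. With PGN and a term for the suffix in the array names, 4 members reached it, against 1439 of 18193 genes. The median of the averaged difference stayed negative in every alternative run, from -1.02 without replicate 1 of unstimulated NOD to -0.57 without its replicate 2.

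Other measurements moved with the strain as well, where 55.4% of all genes were lower in NOD.Idd3 at any size. Of 13 macrophage markers 11 were lower in NOD.Idd3, with a summed intensity of 14153 to 15966 on the NOD arrays and 10874 to 12145 on the NOD.Idd3 arrays, and 5 passed with the replicate block (C1qa, C1qb, C1qc, Mrc1 and Cd5l). Summed dendritic cell markers were 10810 to 15045 and 6895 to 10599, with 7 of 9 lower, and all 7 platelet markers were lower, though their sums overlapped (1335 to 6723 and 870 to 3582). Summed erythroid markers were 145 to 287 and 101 to 116, with 3 of 5 lower. The CD11b+ myeloid list did not separate the strains, at 167901 to 189360 and 158406 to 188530. All these sums of linear values are weighted to the brightest genes of a list, such as Adgre1 among the macrophage markers. For Gapdh, the 3' control probe set exceeded the 5' one by 0.88 to 1.16 in NOD and by 0.72 to 0.80 in NOD.Idd3, ranges that do not overlap, while for Actb the ranges did overlap (0.43 to 0.58 and 0.22 to 0.46). The part of these in the strain difference of the B-lineage genes was not tested.

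The other lists of B cell genes show how far the pattern reached, beside the 55.4% of all genes that were lower in NOD.Idd3. The immunoglobulin heavy chain gene Ighm ranged from 11.80 to 12.58 in NOD and from 9.55 to 11.19 in NOD.Idd3, without overlap (-1.71 ± 0.36, adjusted p = 0.389). Of the 7 measured immunoglobulin and surrogate light chain genes 6 were lower (median -0.42) and none passed, and Jchain, which joins secreted IgM and IgA, was at -0.13 ± 0.30. Of 28 other genes that B cells express 22 were lower (median -0.29), led by H2-Ob (-1.31 ± 0.33), a class II gene largely restricted to B cells, Ccr7 (-0.61 ± 0.22), Irf4 (-0.99 ± 0.36) and Ccr6 (-1.06 ± 0.40), and none passed. Of 20 measured B cell receptor signalling genes, most of them shared with myeloid cells, 11 were lower and 9 higher (median -0.02), and the smallest p belonged to Rasgrp3 (-1.02 ± 0.39).

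Markers of particular B cell stages were mixed. Of 10 B-1 and marginal zone genes 5 were lower and 5 higher (median -0.09). S1pr3 was at -1.40 ± 0.30, Plac8 at 0.52 ± 0.17 and Dtx1, a Notch target of marginal zone B cells, at -1.10 ± 0.38. B cell precursor genes had a median of -0.16 and plasma cell genes one of -0.13, and Rag1 and Rag2 were dim throughout (3.24 to 4.39). Germinal centre genes had a median of -0.07. T cell markers had a median of -0.02 (6 of 12 lower), with Cd4 at -0.77 ± 0.15, NK cell markers one of -0.02 and plasmacytoid dendritic cell markers, which share Spib and Bcl11a with B cells as background, one of -0.02. No gene of these lists passed for the averaged strain difference, with or without the block. Ligands that support or attract B cells also had none that passed (median -0.14), and Cxcl13, the ligand of CXCR5, was at -0.52 ± 0.35. The remaining lists had medians of 0.16 for neutrophils, -0.72 for erythroid cells and -0.16 for mast cells and basophils.

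**Figure D3:**
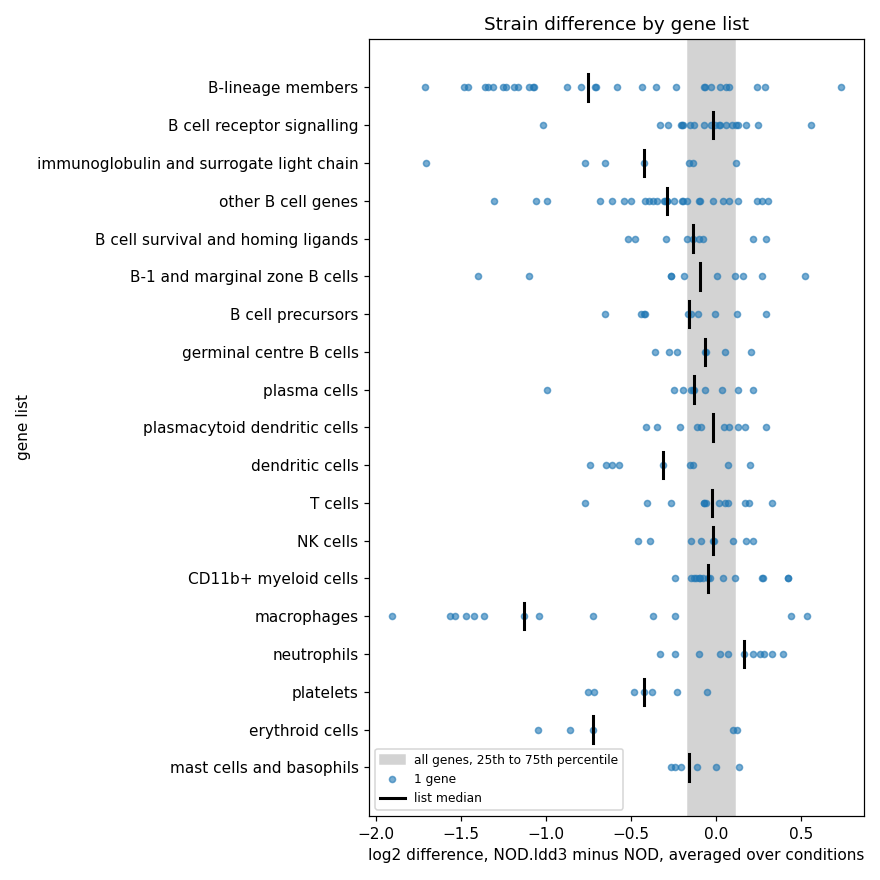
Log2 strain difference (NOD.Idd3 minus NOD, averaged over conditions) of every measured gene of each list, 1 point per gene, with the list median as a bar and the range between the quartiles of all genes in grey. The B-lineage median lies at -0.75 and that of the macrophage list at -1.13, while the B cell receptor signalling list is centred at -0.02.

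The members resembled each other across the arrays to different degrees. Correlated with the mean of the other members over the 8 arrays, which share strain, treatment and replicate number, 8 members had a Pearson r of at least 0.9, led by Blk (0.98) and Spib (0.96). Cd55 (-0.25), Cd180 (-0.26), Pou2f2 (-0.25) Pax5 (-0.20) and Vpreb3 (-0.022) had negative values, and Cxcr5 had 0.54. Among 2844 other genes with an SD over the arrays of at least 0.5, the 12 with the highest r against the members' mean were Abcg3 (0.99), Rasgrp3 (0.99), Ighv14-2 (0.98), Cd5l (0.97), Wdr12 (0.97), Ccr6 (0.97), Pla2g2d (0.97), Crip2 (0.96), Snn (0.96), Tspan4 (0.96), Ttc28 (0.95) and Il5ra (0.95). The list holds an immunoglobulin variable gene (Ighv14-2), the B cell chemokine receptor gene Ccr6 and Il5ra, the IL-5 receptor chain of B-1 cells and eosinophils, and also Cd5l, which is a macrophage gene.

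The second comparison asked how the same genes responded to PGN. There was no common direction: 17 of 30 members had a negative and 13 a positive PGN effect averaged over strains. Over all 18193 genes 7973 were negative, and the median of the members was -0.09 against 0.05 over all genes. In limma 1 member rose and 2 fell, against 4.86% and 6.4% of all genes. Cxcr5 rose 3.20-fold, while Cnr2 fell 3.13-fold and Ralgps2 fell 1.85-fold. At an unadjusted p under 0.05, 2 members were higher and 6 lower, against 11.4% and 13.7%. With the replicate block 10 members passed, 3 higher and 7 lower, against 7.21% and 9.73% of all genes. Without the block the count of members is near that background. Within NOD, Cnr2 alone passed (3.94% of all genes, 1.81% higher and 2.13% lower), and with the block Cxcr5 rose and Cnr2, Fcrla, Cd79b and Ralgps2 fell (3.83% higher and 4.89% lower). Within NOD.Idd3, 0 members passed in limma (3.14% of all genes, 1.89% higher and 1.25% lower), with 3 higher and 1 lower at an unadjusted p under 0.05 (7.4% and 8.02% of all genes), and with the block Cxcr5 rose and Cnr2 fell (6.63% of all genes, 3.67% higher and 2.97% lower).

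Cnr2 had the clearest response. It stood at 8.56 and 9.41 in unstimulated NOD, 7.09 and 6.79 in NOD with PGN, 8.25 and 8.06 in unstimulated NOD.Idd3 and 6.99 and 6.83 in NOD.Idd3 with PGN. Each PGN value was below each unstimulated value, and the effect averaged over strains was -1.65 ± 0.21 (adjusted p = 0.00176), and it passed in all 15 alternatives for this contrast. Within NOD it fell by 2.04 ± 0.29 (adjusted p = 0.00909), a call lost without replicate 2 of either NOD group, and in NOD.Idd3 the effect was -1.25 ± 0.29 (0.0589, and 0.0419 with the replicate block). Cnr2 is also known in macrophages and other leukocytes.

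Cxcr5 went the other way at nearly the same size in every pair, by 1.46 and 1.86 in NOD and 1.52 and 1.87 in NOD.Idd3. The average was 1.68 ± 0.44 (adjusted p = 0.0440), and in the fit with the block its SE was 0.14 (adjusted p = 0.000311). Without the block the call was lost in 7 of 15 alternatives (adjusted p up to 0.143), among them without either replicate of unstimulated NOD or NOD.Idd3, or replicate 2 of either PGN group, and it was kept in all 8 fits that had the block and left out 1 array. Ralgps2 stood at 6.13 and 7.18, 5.61 and 5.32, 5.52 and 5.76, and 4.92 and 5.21, so the conditions were apart within each strain and overlapped between strains. Its effect of -0.88 ± 0.24 (adjusted p = 0.0451) was -0.29 (0.342) as the mean of its 3 probe sets, and the call was lost without any 1 array other than replicate 1 of unstimulated NOD. With the block it passed in 2 of 8 fits that left out 1 array, those without replicate 1 of either NOD group.

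The receptor chains and Cd22 did not pass in limma without the replicate block and fell with it. For Cd79b the pairs were -0.74 and -1.41 in NOD and -0.49 and -0.76 in NOD.Idd3 (average -0.85 ± 0.39, adjusted p = 0.220, and 0.00776 with the block). For Cd79a they were -0.70, -1.28, -0.28 and -0.49 (-0.69 ± 0.32, 0.219, and 0.0445 with the block), and for Cd22 -0.44, -1.14, -0.30 and -0.44 (-0.58 ± 0.24, 0.170, and 0.0496 with the block). Without the block, Cd79a (-1.03, adjusted p = 0.0363) and Cd22 (-0.84, 0.0270) also passed when replicate 1 of unstimulated NOD was left out. Of the 8 fits that had the block and left out 1 array, Cd79b passed in 7, all but that without replicate 2 of NOD.Idd3 with PGN (0.0530), while Cd79a and Cd22 passed in 1, that without replicate 1 of unstimulated NOD. Over all alternatives the effect ran from -1.03 to -0.34 for Cd79a and from -0.84 to -0.32 for Cd22. Ms4a1, in contrast, stood at -0.04 ± 0.34 and Blk at -0.10 ± 0.41, and neither passed with the block (0.868 and 0.732). The test of the difference between such genes was not made.

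Fcrla stood at 7.03 and 8.66 in unstimulated NOD, 5.35 and 6.61 in NOD with PGN, 6.10 and 6.84 in unstimulated NOD.Idd3 and 5.35 and 6.54 in NOD.Idd3 with PGN. Its pairs were all negative, and the averaged effect of -1.20 ± 0.44 did not pass without the block (adjusted p = 0.131, and 0.00224 with it), except when replicate 1 of unstimulated NOD was left out (-1.60, 0.0456). With the block it passed in all 8 fits that left out 1 array. Its other probe sets gave -1.16 and -1.10. Fcmr was at -1.01 ± 0.38 (0.137, and 0.0235 with the block), with pairs from -1.97 to -0.54, and it too passed without the block when replicate 1 of unstimulated NOD was left out (-1.48, 0.00934). With the block and 1 array left out it passed in 4 of 8 fits, and its call was lost without replicate 2 of either PGN group or either replicate of unstimulated NOD.Idd3. Cd37 was lower with PGN in all 4 pairs and without overlap between conditions, from 11.46 to 11.79 unstimulated and from 10.96 to 11.30 with PGN, and it missed the threshold (-0.44 ± 0.15, adjusted p = 0.0999, and 0.0701 with the block). Non-overlapping falls were seen in 2 of 30 members, Cnr2 and Cd37, against 9.41% of all genes.

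Besides Cxcr5, Tnfrsf13c and Btla were the members that rose in the fit with the block. Tnfrsf13c was higher by 0.65 and 1.02 in NOD and by 0.79 and 1.20 in NOD.Idd3 (average 0.91 ± 0.42, adjusted p = 0.220, and 0.0126 with the block). Btla was higher by 0.49, 0.68, 0.47 and 0.82 (0.61 ± 0.31, 0.256, and 0.0172 with the block). With the block and 1 array left out, Tnfrsf13c passed in 5 of 8 fits and lost its call without either replicate of NOD.Idd3 with PGN or replicate 2 of unstimulated NOD.Idd3. Btla passed in 3 of 8, those without replicate 1 of unstimulated NOD, of NOD with PGN or of unstimulated NOD.Idd3. Over all alternatives the effects ran from 0.50 to 1.32 for Tnfrsf13c and from 0.38 to 0.85 for Btla. Ly6d was also higher in all 4 pairs, by 0.16 and 0.18 in NOD and 0.59 and 0.58 in NOD.Idd3, and did not pass (0.38 ± 0.18). Blnk averaged 0.47 ± 0.19 and did not pass (0.164, and 0.115 with the block), though it did after quantile normalization (0.0491) and without replicate 2 of unstimulated NOD (0.0471). None of the 7 transcription factor genes passed with or without the block, and their effects ran from -0.38 (Spib) to 0.29 (Pax5).

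**Figure D4:**
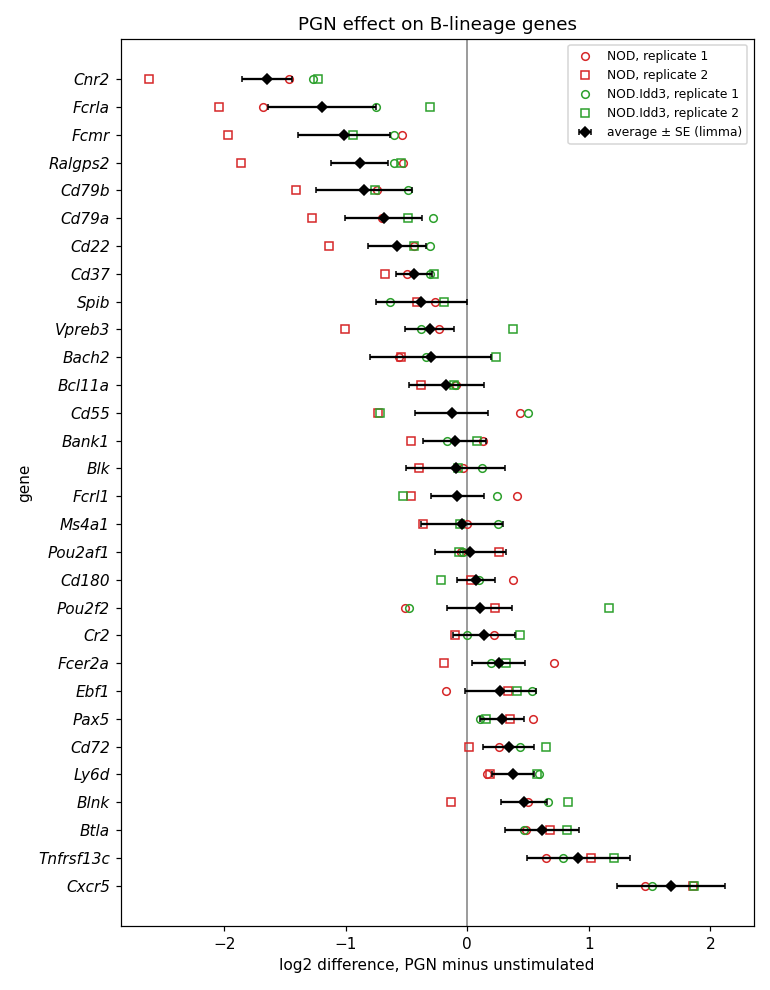
Log2 difference (PGN minus unstimulated) of each of the 30 genes: diamonds with bars give the limma average over strains with its SE, and open symbols give the differences within each strain and replicate number. Cnr2 (-1.65) and Cxcr5 (1.68) lie at the ends, each with its 4 symbols on 1 side of 0.

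**Figure D5:**
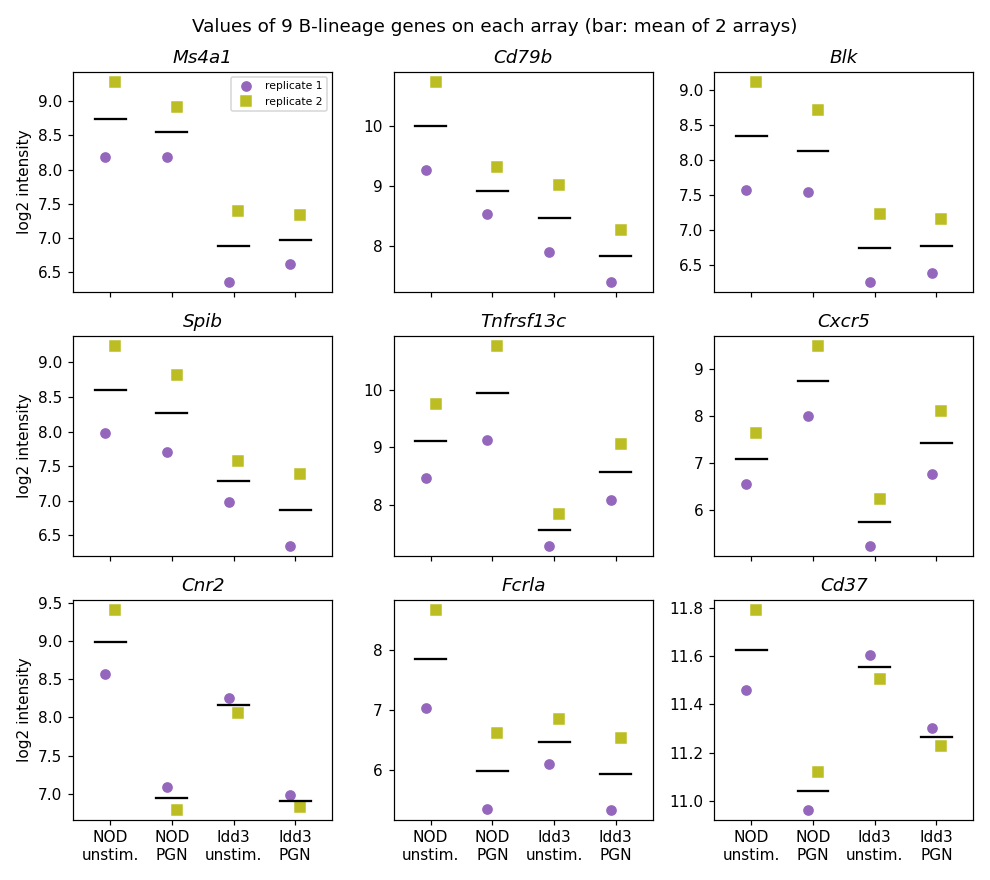
Log2 intensity of 9 of the genes on each array, by group, with the replicate number marked and a bar at the mean of the 2 arrays (Idd3 on the axis stands for NOD.Idd3). The scales differ between panels, Ms4a1 and Blk separate by strain, Cnr2 and Cd37 separate by PGN, and Cxcr5 differs along both.

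Related B cell genes outside the list also divided with PGN. Of the 28 other B cell genes 10 rose and 2 fell (median 0.50), against 4.86% and 6.4% of all genes, with Irf4 at 1.67 ± 0.36 and Ccr7 at 1.64 ± 0.22, while H2-Ob stood at 0.04 ± 0.33 and Ccr6 at -0.02 ± 0.40. Of the 20 receptor signalling genes 3 rose and 4 fell (median -0.18), against the same shares. Ighm was at 0.14 ± 0.36, and no gene of the immunoglobulin list passed (0.14). Tnfsf13b, which encodes the BAFF ligand of Tnfrsf13c and is made mainly by myeloid cells, fell by 1.06 ± 0.21 (adjusted p = 0.0147). Many genes of these lists are expressed by myeloid cells too, so which cells gave these values cannot be told apart.

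The last comparison asked whether the PGN effect on these genes differed between the strains. For 24 of 30 members the effect was more positive in NOD.Idd3, as it was for 9755 of all 18193 genes. The median difference was 0.29 against 0.03 over all genes. In limma 0 members passed with or without the replicate block (0% of all genes in each). Of the members, 0 had an unadjusted p under 0.05, against 180 higher and 134 lower of all 18193 genes. The largest was Fcrla, at -1.86 ± 0.63 in NOD and -0.53 ± 0.63 in NOD.Idd3 (difference 1.33 ± 0.89), followed by Cnr2 (0.79 ± 0.41), Ralgps2 (0.62 ± 0.47) and Vpreb3 (0.62 ± 0.41). Cxcr5 differed by 0.03 ± 0.89, or ± 0.29 with the block. The median over the list ran from -0.26 to 0.73 over the alternatives, and it was negative without replicate 1 of NOD with PGN (-0.029) and without replicate 2 of unstimulated NOD (-0.26).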

How the data were processed

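Expression was measured on 8 single-channel arrays, 2 for each combination of strain and treatment, and all 8 were used. The deposited intensity values, 1 per probe set and array, had been summarised by the authors with RMA, per the submitters' processing notes, and stand on a linear scale (3.97 to 42906). The sources used here do not give the version or chip definition. Log2 was taken and nothing else was normalized or filtered.

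Of 45101 probe sets, 64 controls, 9160 without a symbol and 932 with several were left out. The platform annotation named the rest, with symbols updated through the RefSeq gene table of GRCm38.p6 (34741 of 34945 matched). The probe set with the highest mean stood for each of 18193 genes, and 13 members had 26 others. Of these 26, 9 had the opposite sign for the averaged strain difference and 6 for the averaged PGN effect.

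Limma 3.58.1 in R 4.3.3 (lmFit, eBayes) was fitted to the 4 group means over all genes and tested on simulated data. The replicate numbers were taken to pair the arrays: array names put the replicate 1 arrays on 1 date, and the replicate difference correlated between groups at 0.17 to 0.42 over 6 pairs of groups. The lowest correlation was between unstimulated NOD and unstimulated NOD.Idd3. The fit with the replicate block was planned as an alternative, and its value is given where it changes a call. Further alternatives were a variance trend, a term for the suffix RR1 in array names, removal of genes under the 40th percentile, the mean of all probe sets, removal of _x_at and _s_at probe sets, quantile normalization, the 4 arrays compared alone, and each array left out. The fits with the block that left out 1 array were chosen after seeing the data.

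The members and lists were chosen with earlier results of these data known. All members were named, with array values for those that passed or had the 10 smallest p-values of the averaged strain difference, and of other lists up to 4 genes by that p. Genes named beyond these were chosen after their values were seen. The number of arrays limits the precision.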

Additional observations from a re-analysis of the deposited data

How the results depend on the processing

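The number of members that passed for the averaged strain difference was 0 in every alternative without the replicate block and 6 with it. Leaving out single arrays from the fit with the block gave 0 to 11 (11 without replicate 1 of unstimulated NOD, 4 without replicate 1 of NOD with PGN and 0 otherwise). For the averaged PGN effect 3 members passed, against 10 with the replicate block, 1 with the array-name suffix as a term, 1 to 6 with single arrays left out and 3 to 10 with the block and an array left out (7 without replicate 2 of unstimulated NOD, 8 without replicate 1 of NOD with PGN). In NOD 1 passed (3.94% of all genes), against 5 with the block (8.72%), and the median ran from -0.68 to 0.37 with single arrays left out. In NOD.Idd3 0 passed (3.14% of all genes), against 2 with the block (6.63%). After quantile normalization 1 passed (357 of all genes higher and 260 lower), as did 1 in the 4 arrays alone (361 higher and 344 lower). With single arrays left out the median ran from -0.087 to 0.14. The replicate block changed no call in the other contrasts.

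Signs turned in some alternatives, and not only for members near 0. Among them were Bcl11a (0.29) and Pou2f2 (0.24) for the strain difference and Bach2 (-0.30) and Ebf1 (0.27) for the PGN effect. With all arrays kept, the members that turned for the averaged strain difference were Pax5 (-0.051 with the suffix term, -0.065 as the mean of probe sets), Cd72 (0.032 with the suffix term), Bcl11a (-0.029 as the mean), Vpreb3 (0.076 after quantile normalization) and Bach2 (0.076 with the suffix term, 0.19 as the mean). For the averaged PGN effect they were Ms4a1 (0.024 with the suffix term, 0.025 after quantile normalization), Blk (0.049), Bcl11a (0.024) and Bank1 (0.059) with the suffix term, and Bcl11a as the mean (0.083). The cause was not tested. With single arrays left out the strain difference ran from -0.095 to 0.15 for Pax5, -0.25 to 0.12 for Cd72, -0.00669 to 0.16 for Cd37, -0.043 to 0.16 for Cd180, -0.031 to 0.62 for Bcl11a, -0.22 to 0.16 for Vpreb3, -0.48 to 0.35 for Bach2 and -0.0388 to 0.52 for Pou2f2. The PGN effect ran from -0.32 to 0.23 for Ms4a1, -0.48 to 0.29 for Blk, -0.22 to 0.27 for Pou2af1, -0.030 to 0.18 for Cd180, -0.28 to 0.11 for Fcrl1, -0.49 to 0.15 for Bcl11a, -0.46 to 0.20 for Cd55, -0.0386 to 0.59 for Ebf1, -0.12 to 0.40 for Cr2, -0.39 to 0.18 for Bank1, -0.72 to 0.12 for Bach2 and -0.18 to 0.38 for Pou2f2.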
